A study of Bos taurus with 18 samples.

Results

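The genes described here are 10 genes of the nuclear lamina and of the high mobility group (HMG) chromatin proteins: LMNB1, LMNB2, LMNA, TMPO, EMD, LEMD3, BANF1, HMGB1, HMGB2 and HMGA2. They were taken by gene name from the 24596 genes of the deposited table, and each name had 1 row there. Of these, 7 encode proteins of the lamina or its partners and 3 encode HMG proteins. The lamina is a mesh of A-type and B-type lamins under the inner nuclear membrane. LEM-domain proteins of that membrane hold chromatin to it through the DNA-binding protein encoded by BANF1. HMGB1 and HMGB2 bend DNA in the nucleus, and HMGA2 binds AT-rich DNA. In human and mouse fibroblasts, loss of lamin B1 is a widely used marker of senescence, HMGB2 is lost from the nucleus, HMGB1 moves out of the nucleus into the medium, and HMGA2 can accumulate on senescent chromatin. The question asked of these libraries was whether such a loss was seen at the RNA level, and how far the scaling of the libraries decided it.

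RNA was sequenced from cultured bovine cells labelled as fibroblasts of 2 lines, Simmental-like and Holstein-like, in 18 libraries. Each line had 3 libraries labelled primary, 3 labelled senescent and 3 labelled immortalized. In the Simmental-like line the cells were named PBF-13 (primary), Sn-BF-13 (senescent) and HUN-BF-13 (immortalized), and in the Holstein-like line PBF-15, Sn-BF-15 and HUN-BF-15. The immortalized cells arose spontaneously in long culture, with no immortalizing gene named in the labels. A stage cannot be told apart from its own culture, and no line can stand for a breed. In the description field, the primary and senescent Simmental-like libraries are named BDF-20, those of the senescent stage also MultiXray-Ctrl, and the immortalized ones are named BF-13. The Holstein-like primary libraries are named BEF there, and those of both later stages BF-15, with P9 in the senescent names and P23 in the immortalized names. The column name of every Holstein-like library ends in Rerun, and that of no Simmental-like library does. What these names stand for, and whether the stages of a line come from the same source, is not given in the sources used here, so a difference in source cannot be told apart from stage. The labels call the libraries biological replicates without naming separate cultures or animals, so the p-values rest on variation among the libraries that could be technical only. In bulk RNA, fewer cells of a type and less RNA per cell cannot be told apart.

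Total counts, in M (mega), were 18.2 to 23.2 M in the Simmental-like libraries, 1.42 to 1.47 M in Holstein-like primary libraries and 11.0 to 14.1 M in the other Holstein-like libraries. Fibroblast markers, a list of 12 genes that were all detected in each Simmental-like library, took 4.23 to 6.77% of their counts. The Holstein-like libraries went against their label. Skeletal muscle markers took 24.0 to 24.1% of counts in the primary ones, liver markers took 18.8% and 17.3% in senescent libraries 2 and 3 and 17.6% in immortalized library 1, and fibroblast markers reached 6.74% in immortalized library 3 against 0.0743 to 0.651% in the other 8. In senescent library 1, skeletal muscle markers took 3.38% and heart markers 3.21%, and in immortalized library 2 kidney markers took 1.2%. Among the Simmental-like libraries, primary library 1 stood apart: its counts differed from those of primary libraries 2 and 3 by a chi-square per gene of 353 and 181, against 39.8 between libraries 2 and 3. Senescent libraries 1 and 2 differed by little more than counting noise, with a chi-square per gene of 1.34. Results are therefore given first for the Simmental-like line, with and without primary library 1, and the Holstein-like line is described library by library. Levels are in CPM (counts per M counts of the library) scaled with TMM (trimmed mean of M values) unless the total count is named, and no level was compared between genes, because gene lengths were not used.

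In senescent against primary Simmental-like cells, LMNA, EMD, BANF1, HMGB1 and HMGB2 fell and LMNB2, LEMD3 and HMGA2 rose, whereas LMNB1 and TMPO did not pass the test. That made 5 lower and 3 higher of 10, in a comparison in which 29.7% of the 13099 tested genes were called lower and 28.3% higher (edgeR quasi-likelihood test, Benjamini-Hochberg adjusted p under 0.05). The largest fall was that of LMNA, by 1.54 on the log2 scale, and the largest rise that of HMGA2, by 1.55. The median log2 change of the 10 genes was -0.34, beside 0.01 over all tested genes. With 58% of all tested genes called in either direction, the number of calls among the 10 does not set them apart. With senescent libraries 1 and 2 summed into 1 library, LMNB2 (adjusted p 0.067), BANF1 (0.0794) and HMGB2 (0.0543) lost their calls and the other 5 kept them. The same libraries enter the comparisons of immortalized cells, so the 3 comparisons share samples.

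**Figure D1:**
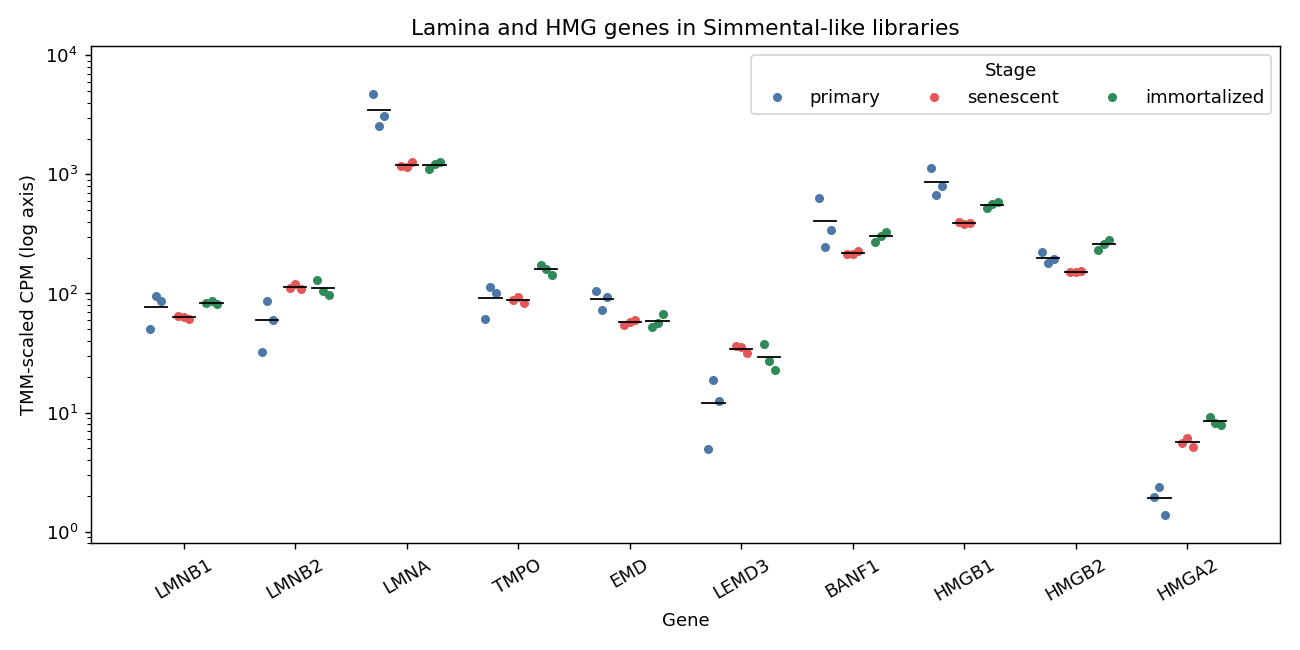
TMM-scaled CPM on a log axis in each of the 9 Simmental-like libraries, for each of the 10 genes, with points for libraries and bars for the mean of 3 libraries per stage. The 3 senescent libraries lie close together for every gene, while the primary libraries are spread: LMNA lies at 1160 to 1260 CPM in senescent libraries and at 2540 to 4780 CPM in primary ones. Levels should be read across stages within a gene, not between genes.

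LMNB1 encodes lamin B1, the B-type lamin that senescent human fibroblasts lose. It had 65.1, 63.0 and 61.3 CPM in senescent libraries 1 to 3, against 50.5, 94.9 and 87.2 CPM in primary libraries 1 to 3. The senescent libraries were all below primary libraries 2 and 3 and all above primary library 1, so the groups overlapped. Its log2 change was -0.30 ± 0.21 (SE) with an adjusted p of 0.237 in edgeR. Without primary library 1 the change was -0.54 with an adjusted p of 0.000162, and LMNB1 was called lower. Leaving out any of the other 5 libraries gave no call, with a log2 change no nearer 0 than -0.13.

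LMNB2 encodes lamin B2, the other B-type lamin. It had 111, 121 and 110 CPM in senescent libraries, against 32.3, 86.4 and 59.8 CPM in primary ones. The groups did not overlap, and primary library 1 was again the lowest. Senescent over primary gave a log2 change of 0.94 ± 0.30 with an adjusted p of 0.0276 in edgeR. The call was lost without primary library 3 (adjusted p 0.0728) or without senescent library 1, 2 or 3 (adjusted p 0.0621, 0.0740 and 0.0586), and the change was 0.63 without primary library 1.

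LMNA encodes lamins A and C, the A-type lamins, which are abundant in stiff and mesenchymal tissues. It had 1180, 1160 and 1260 CPM in senescent libraries, against 4780, 2540 and 3110 CPM in primary ones. Each primary library was above every senescent library, and primary library 1 was the highest. LMNA changed by -1.54 ± 0.22 on the log2 scale, with an adjusted p of 0.000541 in edgeR, and this call was kept when any of the 6 libraries was left out, with changes of -1.72 to -1.24. Among all tested genes, the change of LMNA lay at percentile 5.58.

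TMPO encodes the LAP2 proteins, LEM-domain partners of lamins. It had 87.4, 93.2 and 82.4 CPM in senescent libraries, against 61.6, 114 and 101 CPM in primary ones. As with LMNB1, senescent libraries lay below primary libraries 2 and 3 and above primary library 1. TMPO had a log2 change of -0.08 ± 0.21 with an adjusted p of 0.763 in edgeR. Leaving out primary library 1 gave -0.31 with an adjusted p of 0.0223, which is a call, and without primary library 2 it was 0.10.

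EMD encodes emerin, an inner-membrane LEM-domain protein whose loss causes a muscular dystrophy in humans. It had 54.0, 57.9 and 60.4 CPM in senescent libraries, against 104, 72.8 and 94.2 CPM in primary ones. The groups did not overlap. EMD changed by -0.65 ± 0.15 on the log2 scale, with an adjusted p of 0.00676 in edgeR, and EMD stayed called lower whichever library was left out.

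LEMD3 encodes MAN1, a LEM-domain protein that also holds back SMAD signalling of the TGF-beta pathway. It had 36.0, 35.8 and 31.5 CPM in senescent libraries, against 4.97, 18.7 and 12.5 CPM in primary ones. LEMD3 was higher in every senescent library, with a coefficient of variation of 57.1% over the primary libraries and 7.35% over the senescent ones. Its log2 change was 1.50 ± 0.40 with an adjusted p of 0.0131 in edgeR, and it stayed called with any library left out, at 1.12 to 1.97.

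BANF1 encodes the small protein that bridges LEM-domain proteins and DNA. It had 213, 213 and 226 CPM in senescent libraries, against 628, 246 and 341 CPM in primary ones. The groups did not overlap, but primary library 2 was close to the senescent level. The log2 change was -0.90 ± 0.29 with an adjusted p of 0.0291 in edgeR. Leaving out primary library 1 gave -0.44 (adjusted p 0.0137), and the call was lost without senescent library 1, 2 or 3 (adjusted p 0.0792, 0.0794 and 0.0670).

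HMGB1 encodes a DNA-bending protein that acts as an alarm signal outside the cell. It had 396, 383 and 389 CPM in senescent libraries, against 1130, 675 and 802 CPM in primary ones. The groups did not overlap. The log2 change was -1.16 ± 0.18 with an adjusted p of 0.000809 in edgeR, and HMGB1 stayed lower with any library left out, at -1.32 to -0.93. RNA levels say nothing of the export of the protein from the nucleus.

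HMGB2 encodes the HMGB protein of dividing cells. It had 151, 152 and 154 CPM in senescent libraries, against 221, 180 and 194 CPM in primary ones. The groups did not overlap, and the senescent libraries had a coefficient of variation of 1.13%. The log2 change was -0.38 ± 0.11 with an adjusted p of 0.0160 in edgeR, and the call was lost without senescent library 1 (adjusted p 0.0558) or 2 (adjusted p 0.0534). HMGB1 and HMGB2 were the members whose deposited counts were not whole, in 16 and 15 of the 18 libraries, so their reads were partly split with similar sequences and their levels are uncertain to that extent.

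HMGA2 encodes an architectural factor that is high in embryos and low in most adult tissue. It had 134, 136 and 115 counts in senescent libraries, against 29, 50 and 22 counts in primary ones. On the TMM scale that was 5.60, 6.16 and 5.12 CPM in senescent libraries and 1.97, 2.36 and 1.37 CPM in primary ones. The groups did not overlap. The log2 change was 1.55 ± 0.20 with an adjusted p of 0.000345 in edgeR, and it stayed called with any library left out, at 1.37 to 1.75.

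Scaling decided some of these calls and not others. The TMM factors were 1.16 in senescent libraries and 0.726, 0.915 and 0.874 in primary libraries 1 to 3, a difference of 0.48 between the mean log2 factors. TMM thus lowered log2 changes by about that much relative to the total count, though not equally for every gene. LMNB1 was at -0.30 with TMM and at 0.14 by total count. By total counts, the median over all tested genes was 0.47, and 5952 genes were called higher and 1843 lower, against 3704 higher and 3887 lower on the TMM scale. The 100 most abundant genes took 24.0 to 24.2% of counts in senescent libraries and 31.2 to 36.8% in primary libraries. Scaling by a list of 9 housekeeping genes moved the median to 0.68. On the TMM scale 7 of those 9 genes were themselves called lower in senescent cells, among them PSMB4, a proteasome subunit, at -1.22 ± 0.28 (adjusted p 0.00681 in edgeR), and CHMP2A, of the ESCRT membrane machinery, at -1.82 ± 0.38 (adjusted p 0.00430). These were -0.78 and -1.18 without primary library 1.

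Over 7 scalings (TMM, RLE, upper quartile, TMM over all 18 libraries, total count, total count without genes at 1% of counts or more, and housekeeping genes), LMNA and HMGB1 were called lower and LMNB2, LEMD3 and HMGA2 higher each time. LMNA ranged from -1.56 to -0.79 and HMGB1 from -1.18 to -0.42 on the log2 scale. LMNB2 ranged from 0.91 to 1.52, LEMD3 from 1.47 to 2.07 and HMGA2 from 1.53 to 2.22. The fall of LMNA and HMGB1 and the rise of those 3 genes thus held whichever of the 7 scalings was used. The 7 scalings were not independent. The median over all tested genes was 0.01, 0, 0.09 and -0.01 under the first 4, and 0.47, 0.39 and 0.68 under the other 3. A count such as 4 of 7 thus depends on how many scalings of each kind were chosen. EMD was called lower in 4 of the 7, at -0.67 to 0.06, and BANF1 also in 4, at -0.91 to -0.11. HMGB2 was called lower in 4, was at 0.10 with an adjusted p of 0.389 by total count, and was called higher at 0.32 with an adjusted p of 0.0394 under housekeeping scaling. LMNB1 was called under none of the 7 with all 9 libraries in the fit, at -0.32 to 0.32, and TMPO under none, at -0.10 to 0.54. The direction of LMNB1, TMPO, EMD and HMGB2 between senescent and primary cells therefore depended on the scaling.

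**Figure D2:**
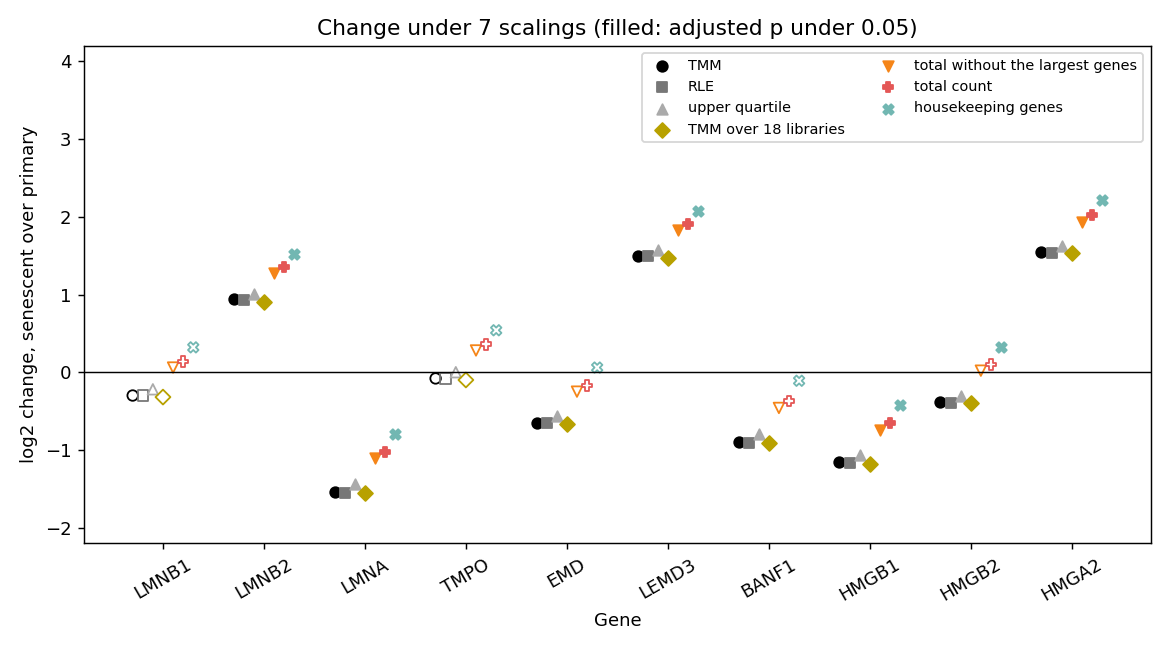
The log2 change of senescent over primary Simmental-like cells for each of the 10 genes under 7 scalings, with filled marks where the adjusted p was under 0.05 and open marks where it was not. LMNA and HMGB1 stay below 0 and LMNB2, LEMD3 and HMGA2 stay above 0 under all 7, while LMNB1 spans -0.32 to 0.32 and HMGB2 spans -0.40 to 0.32.

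By total counts, HMGB2 had 174, 176 and 178 CPM in senescent libraries, against 160, 164 and 169 CPM in primary ones, so every senescent library was the higher on that scale and the lower on the TMM scale. LMNB1 by total counts had 75.3, 73.1 and 70.9 CPM in senescent libraries, against 36.7, 86.9 and 76.2 CPM in primary ones, still below primary libraries 2 and 3. Groups that did not overlap were 5 lower and 3 higher genes of the 10 on the TMM scale, where 32.3% and 34.3% of tested genes did so. By total counts they were 2 lower and 4 higher, where 15.5% and 53.7% of tested genes did so. A rank among all tested genes does not move when all genes are shifted alike: LMNA lay at percentile 5.58, HMGB1 at 10.9, BANF1 at 16.7, EMD at 23.8, HMGB2 at 33.9, LMNB1 at 37.3, TMPO at 46.4, LMNB2 at 79.8, LEMD3 at 88.3 and HMGA2 at 88.8. On that measure 37.3% of tested genes lay further down than LMNB1.

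Primary library 1 was the lowest of the 3 primary libraries for LMNB1, LMNB2, TMPO and LEMD3 and the highest for LMNA, EMD, BANF1, HMGB1 and HMGB2 on the TMM scale. It was thus at an end of the range for 9 of the 10 genes. Its 100 most abundant genes took 36.8% of counts, and its part in the results was not tested beyond leaving it out. Without it, 7 of the 10 genes were called lower and 3 higher on the TMM scale, where 34% of 13288 tested genes were called lower and 33.6% higher. Without it and with total-count scaling the numbers were 2 lower and 3 higher, beside 17.6% and 52.3% of tested genes, and LMNB1 was at -0.16 with an adjusted p of 0.0908 in edgeR. Without it and with the genes at 1% or more left out of the total, LMNB1 was called lower at -0.23 (adjusted p 0.0266). With housekeeping scaling LMNB1 was at -0.02 (adjusted p 0.912). A lower LMNB1 in senescent cells was therefore called in 2 of these 4 fits, all without primary library 1. The fit on the TMM scale was 1 of those that left out each library in turn. The other 3 were added after the data had been seen.

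Ratios of genes within a library do not depend on how libraries are scaled. The log2 ratio of LMNB1 to LMNA was -4.18, -4.20 and -4.35 in senescent libraries, against -6.56, -4.74 and -5.15 in primary ones. The ratio was higher in every senescent library, by 1.24 on average, with an exact two-sided permutation p of 0.1, the smallest that 3 against 3 libraries can give. The log2 ratio of TMPO to LMNA was -3.75, -3.64 and -3.93 in senescent libraries and -6.27, -4.47 and -4.94 in primary ones, higher by 1.45 (exact permutation p 0.1). The log2 ratio of HMGB2 to HMGB1 was -1.39, -1.34 and -1.34 in senescent libraries and -2.36, -1.91 and -2.05 in primary ones, higher by 0.75 (exact permutation p 0.1). LMNB1 and TMPO were thus higher relative to LMNA, and HMGB2 relative to HMGB1, in all 3 senescent libraries. These ratios show unequal change, not which of the genes changed.

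**Figure D3:**
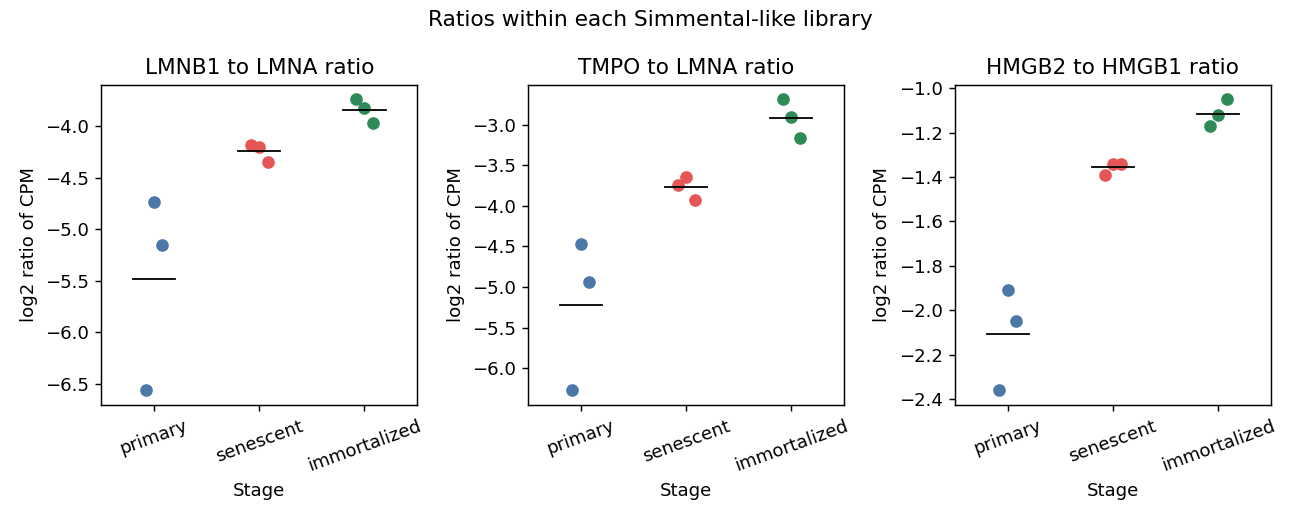
Log2 ratios of CPM within each Simmental-like library for LMNB1 to LMNA, TMPO to LMNA and HMGB2 to HMGB1, with points for libraries and bars for the mean of 3 libraries per stage. For all 3 ratios the stages do not overlap, and the order is primary, senescent, immortalized from low to high.

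In immortalized against senescent Simmental-like cells, HMGB2, TMPO and HMGA2 rose and none of the 10 genes was called lower by edgeR. Of all tested genes 16.4% were called higher and 16.1% lower here. At an unadjusted p under 0.05, 4 of the 10 genes were higher and 0 lower, beside 5616 of the 13099 tested genes in either direction. The median log2 change of the 10 genes was 0.44, beside 0 over all tested genes. DESeq2 and limma-voom each called 4 higher and 0 lower.

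HMGB2 had 232, 261 and 281 CPM in immortalized libraries, against the 151 to 154 CPM of senescent ones. The log2 change was 0.76 ± 0.11 with an adjusted p of 0.000954 in edgeR, and HMGB2 was called higher under all 7 scalings, at 0.60 to 0.78, and with any library left out. TMPO had 173, 162 and 143 CPM in immortalized libraries, against 82.4 to 93.2 CPM in senescent ones. Its log2 change was 0.86 ± 0.21 (adjusted p 0.0135), called in 4 of 7 scalings and lost without senescent library 1 (adjusted p 0.0502) or 3 (adjusted p 0.0551). HMGA2 had 9.19, 8.24 and 7.81 CPM in immortalized libraries, against 5.12 to 6.16 CPM in senescent ones. Its log2 change was 0.58 ± 0.18 (adjusted p 0.0416), and the call was lost without any 1 of the 6 libraries, at adjusted p of 0.0794 to 0.147. HMGB2 was therefore the gene of the 10 that stayed called in immortalized against senescent cells under all 7 scalings.

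LMNB1 had 83.6, 86.3 and 81.6 CPM in immortalized libraries, all above the 61.3 to 65.1 CPM of the senescent ones. Its log2 change of 0.41 ± 0.21 did not pass the test (adjusted p 0.165 in edgeR). HMGB1 had 522, 568 and 584 CPM in immortalized libraries, all above the 383 to 396 CPM of the senescent ones, with a log2 change of 0.52 ± 0.17 (adjusted p 0.0506), and it was called higher in 5 of the 7 scalings. BANF1 had 272, 302 and 330 CPM in immortalized libraries and a log2 change of 0.47 that did not pass (adjusted p 0.255). On the TMM scale these 6 genes were the ones whose immortalized libraries were all above the senescent ones, and 0 genes lay the other way. On that scale 35.6% and 35.3% of tested genes were separated upward and downward. LMNA, LMNB2, EMD and LEMD3 had log2 changes of 0.01, -0.04, 0.03 and -0.24 with adjusted p of 0.982, 0.939, 0.904 and 0.674. LMNA had 1110, 1220 and 1280 CPM in immortalized libraries, within the spread of the senescent ones or close to it. By total counts it had 1150, 1270 and 1320 CPM, all below the 1350 to 1450 CPM of the senescent ones. Its log2 change on that scale, -0.15, did not pass the test (edgeR adjusted p 0.468).

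In immortalized against primary Simmental-like cells, LMNB2, TMPO, LEMD3, HMGB2 and HMGA2 rose and LMNA, EMD and HMGB1 fell, beside 24.9% of all tested genes called higher and 25.5% lower. LMNA was lower by 1.53 ± 0.22 on the log2 scale (adjusted p 0.00052 in edgeR) and HMGA2 higher by 2.13 ± 0.20 (adjusted p 4.9e-05). Both kept their call under all 7 scalings and with any library left out. Markers of cell types moved here too: of 12 fibroblast markers 1 rose and 9 fell, with a median of -0.96, although the list took 5.36 to 6.02% of counts in immortalized libraries and 5.36 to 6.77% in primary ones. Of 6 tested pericyte and smooth muscle markers 1 rose and 3 fell, with a median of -0.78. ACTA2, of that list, was at -3.96 ± 0.24 (edgeR adjusted p 3.6e-06). The part of these cell type markers in the changes was not tested. HMGB2, whose immortalized libraries at 232 to 281 CPM were above the primary ones at 180 to 221 CPM, was higher by 0.38 ± 0.11 (adjusted p 0.0178). It was called under all 7 scalings, and not without primary library 3 (adjusted p 0.0543) or immortalized library 2 (adjusted p 0.0575) or 3 (adjusted p 0.0726).

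LMNB1, at 81.6 to 86.3 CPM in immortalized libraries and 50.5 to 94.9 CPM in primary ones, did not pass the test, at 0.11 ± 0.20 (adjusted p 0.672 in edgeR). Without primary library 1 its log2 change was -0.14. TMPO was higher by 0.78 ± 0.21 (adjusted p 0.0134) and stayed called with any library left out. LEMD3 had 37.4, 27.2 and 22.7 CPM in immortalized libraries and was higher by 1.26 ± 0.40 (adjusted p 0.0298), which was lost without primary library 3 (adjusted p 0.0755), immortalized library 1 (adjusted p 0.104) or immortalized library 2 (adjusted p 0.0615). LMNB2 had 131, 105 and 96.4 CPM in immortalized libraries and was higher by 0.90 ± 0.30 (adjusted p 0.0364), which was lost without primary library 3 or immortalized library 1, 2 or 3 (adjusted p 0.0575 to 0.118). Without primary library 1 the change of LMNB2 was 0.58. The calls of LEMD3 and LMNB2 over primary cells were thus lost when single libraries were left out.

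EMD had 52.7, 56.1 and 67.0 CPM in immortalized libraries and was lower than in primary ones by 0.62 ± 0.15 in size (log2 change -0.62, adjusted p 0.00909 in edgeR), called in 4 of the 7 scalings at -0.63 to -0.05. HMGB1 was at -0.64 ± 0.17 (adjusted p 0.0152), called in 5 of the 7 scalings at -0.65 to -0.04, lost without immortalized library 1 (adjusted p 0.0579), and at -0.42 without primary library 1 (adjusted p 0.00203). BANF1, at -0.43, did not pass (adjusted p 0.251), was called lower at -0.68 without primary library 2 (adjusted p 0.0280) and was at 0.02 without primary library 1. The log2 ratio of LMNB1 to LMNA was -3.74, -3.82 and -3.97 in immortalized libraries, higher than in primary ones by 1.64 and than in senescent ones by 0.40 (exact permutation p 0.1 for both). That of HMGB2 to HMGB1 was -1.17, -1.12 and -1.05, higher by 0.99 and 0.24 (exact permutation p 0.1 for both).

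Other genes of the same structures moved in both directions in senescent against primary Simmental-like cells. Of 19 tested partners of the lamina and envelope, 4 rose and 5 fell, beside the 28.3% and 29.7% of all genes. Those shares apply to every list of this comparison. LBR, the lamin B receptor that tethers heterochromatin, fell, with 23.3 ± 1.7 CPM in senescent cells and 39.3 ± 7.2 CPM in primary cells (SD, n = 3 each; log2 change -0.75 ± 0.15, edgeR adjusted p 0.00304). CTDNEP1, a nuclear envelope phosphatase, fell with a log2 change of -0.75 ± 0.10 (adjusted p 0.000488). TOR1AIP2, a torsin cofactor, rose by 1.23 ± 0.42 (adjusted p 0.0319) and ANKLE2, a LEM-domain protein that acts on BANF1 at mitosis, by 0.77 ± 0.26 (adjusted p 0.0311), and both calls were lost without primary library 3 or any 1 senescent library. Without primary library 1 the change of ANKLE2 was 0.51, and without primary library 2 that of TOR1AIP2 was 1.92. The median of the list was 0.20, beside 0.01 over all tested genes.

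Of 5 genes that process prenylated lamins, 2 fell and 0 rose in edgeR (0 rose at an unadjusted p under 0.05, in DESeq2 and in limma-voom). FNTA, a subunit of farnesyltransferase, was at -0.48 ± 0.12 (edgeR adjusted p 0.00954), and RCE1, which trims the farnesylated end, at -0.86 ± 0.29 (adjusted p 0.0324). ZMPSTE24, the prelamin A protease, did not pass, with 44.2 ± 3.1 CPM in senescent cells and 39.9 ± 14 CPM in primary cells (adjusted p 0.627). It was named after its values were seen. Both falls were called on the TMM scale but not by total counts, and RCE1 was not called without any 1 senescent library and was at -0.43 without primary library 1. Of 26 nuclear pore genes, 7 rose and 3 fell, with NUP160, of the outer ring, higher by 1.16 ± 0.27 (adjusted p 0.00719), RANBP2, of the cytoplasmic filaments, higher by 0.71 ± 0.20 (adjusted p 0.0170), and AAAS and SEC13 lower, at -0.76 ± 0.23 (adjusted p 0.0220) and -0.74 ± 0.23 (adjusted p 0.0222). The 2 falls were lost without any 1 senescent library and by total counts, and were -0.40 and -0.42 without primary library 1, and the rise of RANBP2 without primary library 3 or senescent library 1.

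Of 12 other HMG genes, 1 rose and 3 fell. HMGA1, the relative of HMGA2, rose, with 87.2 ± 1.4 CPM in senescent cells and 56.8 ± 11 CPM in primary cells (log2 change 0.62 ± 0.14, edgeR adjusted p 0.00553). HMGB3, the relative of HMGB1 and HMGB2, fell, with 2.15 ± 0.10 CPM in senescent cells and 8.51 ± 0.64 CPM in primary cells (log2 change -1.98 ± 0.14, adjusted p 1.2e-05). HMGN5, a nucleosome-binding protein, fell by 1.73 on the log2 scale (adjusted p 0.0237), a call lost without any 1 senescent library and by total counts, and was at -0.71 without primary library 1. Of 15 heterochromatin genes, 1 rose and 5 fell. HIRA, a histone H3.3 chaperone linked to senescence-associated foci, was higher by 0.39 ± 0.11 (adjusted p 0.0144), while H2AFY, the histone variant macroH2A, was at -0.68 ± 0.10 (adjusted p 0.00073) and CABIN1, of the HIRA complex, at -0.61 ± 0.15 (adjusted p 0.00788). The falls of H2AFY and CABIN1 were not called under total-count or housekeeping scaling, and the rise of HIRA was lost without senescent library 2 or 3.

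A list of 6 tested oncofetal genes that are studied with HMGA2, which was not on the list, had 5 genes higher and 1 lower, with a median of 1.72. IGF2BP3, an RNA-binding protein of embryos and tumours, had 41.1 ± 2.3 CPM in senescent cells and 5.59 ± 0.27 CPM in primary cells (log2 change 2.88 ± 0.11, edgeR adjusted p 5.0e-07). IGF2BP2, a target of HMGA2 in mouse, had 41.5 ± 1.1 CPM in senescent cells and 12.2 ± 5.5 CPM in primary cells (log2 change 1.76 ± 0.31, adjusted p 0.00186). ARID3A, a DNA-binding factor, fell by 0.88 on the log2 scale (adjusted p 0.00294), not by total counts. Of 6 genes for receptors and nuclear export of HMGB1, 3 rose and 1 fell. CXCR4, which binds HMGB1 in complex with a chemokine, rose by 2.77 ± 0.16 (adjusted p 3.9e-06), the exportin XPO1 by 0.21 ± 0.08 (adjusted p 0.0412, lost without primary library 2 or 3 or any 1 senescent library), and the toll-like receptor TLR4 fell by 2.31 on the log2 scale (adjusted p 0.00023).

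Of 26 cell cycle genes, 5 rose and 11 fell in senescent against primary Simmental-like cells on the TMM scale, with a median of -0.19. Of all tested genes 28.3% were called higher and 29.7% lower there. Together they took 0.4 to 0.408% of counts in senescent libraries and 0.286 to 0.364% in primary ones. The list as a whole was thus higher by total counts and, by its median, lower on the TMM scale. MKI67, the Ki-67 proliferation marker, had 357 ± 20 CPM in senescent cells and 265 ± 130 CPM in primary cells, which did not pass the test (log2 change 0.43 ± 0.33, edgeR adjusted p 0.287). Without primary library 2 it was called higher, at 0.84 (adjusted p 0.0260). TOP2A, a topoisomerase of dividing cells, had 347 ± 12 CPM in senescent cells and 215 ± 60 CPM in primary cells and rose by 0.69 ± 0.19 (adjusted p 0.0151). CENPE and CENPF, of the kinetochore, rose by 0.91 ± 0.14 (adjusted p 0.000832) and 0.74 ± 0.21 (adjusted p 0.0164). MCM3, of the replicative helicase, and AURKB, a mitotic kinase, fell by 1.21 (adjusted p 3.3e-05) and 1.27 (adjusted p 0.00126) on the log2 scale. The proliferation genes TOP2A, CENPE and CENPF were thus higher, not lower, in the libraries labelled senescent, while MCM3 and AURKB were lower. CENPF lost its call without primary library 3 or senescent library 1 or 2.

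Markers of cell types moved with the same comparison. Of 12 fibroblast markers, 2 rose and 10 fell, and the list took 4.23 to 4.28% of counts in senescent libraries and 5.36 to 6.77% in primary ones. DCN, decorin, fell by 1.88 on the log2 scale (edgeR adjusted p 7.3e-05). Of 6 tested pericyte and smooth muscle markers 2 rose and 2 fell, with a median of -0.30. The 8 genes of that list took 0.0765 to 0.0798% of counts in senescent libraries and 0.222 to 0.306% in primary ones, with ACTA2, smooth muscle actin, lower by 2.90 in size (log2 change -2.90, adjusted p 2.2e-05), and MCAM, a pericyte adhesion molecule, higher by 2.95 ± 0.23 (adjusted p 1.8e-05). Endothelial markers took 0.00113 to 0.00134% in senescent and 0.000299 to 0.00038% in primary libraries, and immune markers 0.00104 to 0.00122% and 0.00149 to 0.00174%. Both lists were thus near 0, although 3 of 4 tested endothelial markers rose, and of 3 tested immune markers 1 rose and 1 fell. Of 4 tested melanocyte and Schwann cell markers 3 rose, with a median of 2.03, among them S100B, a calcium-binding protein, with 27.9 ± 1.4 CPM in senescent cells and 13.3 ± 1.8 CPM in primary cells (log2 change 1.08 ± 0.13, adjusted p 0.000179). Of 3 tested skeletal muscle markers 2 rose, among them TTN, the giant sarcomere protein titin, with 20.2 ± 2.6 CPM in senescent cells and 0.779 ± 0.37 CPM in primary cells (adjusted p 1.2e-05), and of 4 tested heart markers 3 rose. The part of these cell type markers in the changes of LMNA and the other genes was not tested.

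In immortalized against senescent Simmental-like cells, 11 of 26 cell cycle genes rose and 0 fell in edgeR (12 and 1 at an unadjusted p under 0.05, 11 and 2 in DESeq2, 11 and 1 in limma-voom), in a comparison with 16.4% and 16.1% of all genes called. MCM2 and MCM3 rose by 1.07 ± 0.09 (edgeR adjusted p 6.5e-05) and 1.08 ± 0.10 (adjusted p 0.000118). MKI67 and TOP2A did not pass, at 0.19 (adjusted p 0.691) and 0.31 (adjusted p 0.253). Of 19 lamina and envelope partners 3 rose and 2 fell. SYNE2, a nesprin that links the nucleus to the cytoskeleton, rose by 0.99 ± 0.15 (adjusted p 0.00128) and VRK1, the kinase that releases BANF1 from DNA, by 0.96 ± 0.18 (adjusted p 0.00378). SYNE3 and NARF were lower, at -1.20 ± 0.33 (adjusted p 0.0246) and -0.99 ± 0.28 (adjusted p 0.0271), and both calls were lost without any 1 of the 6 libraries.

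The other lists of that comparison were split or short. FNTB, the other farnesyltransferase subunit, was the 1 of 5 lamin processing genes that rose, by 0.72 ± 0.14 (edgeR adjusted p 0.00413). Of 26 pore genes 4 rose and 2 fell, among them SEC13, higher by 1.12 ± 0.23 (adjusted p 0.0063), and AHCTF1, at -0.53 ± 0.12 (adjusted p 0.0102). Of 12 other HMG genes 3 rose and 2 fell, with SSRP1, of the FACT histone chaperone, higher by 0.69 ± 0.09 (adjusted p 0.000627). Of 15 heterochromatin genes 3 rose and 3 fell, with the histone methyltransferase SUV39H1 higher by 0.80 ± 0.12 (adjusted p 0.0013) and UBN1, of the HIRA complex, at -1.02 ± 0.25 (adjusted p 0.0148), which was lost without immortalized library 2 or 3. Of the 6 oncofetal genes 4 rose and 0 fell in edgeR (4 and 0 also at an unadjusted p under 0.05, in DESeq2 and in limma-voom), with ARID3A higher by 1.08 ± 0.17 (adjusted p 0.00171). Of the 6 HMGB1 receptor and export genes 2 rose and 1 fell, with TLR2, a toll-like receptor, at -2.19 ± 0.24 (adjusted p 0.000232).

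In immortalized against primary Simmental-like cells, 4 of the 6 oncofetal genes rose and 0 fell in edgeR (4 and 0 also at an unadjusted p under 0.05, in DESeq2 and in limma-voom), with IGF2BP3 at 54.7 ± 2.5 CPM in immortalized and 5.59 ± 0.27 CPM in primary cells (log2 change 3.29 ± 0.11, edgeR adjusted p 1.8e-07). Over all tested genes, 24.9% were called higher and 25.5% lower, the shares to set beside every list of this comparison. Of 26 cell cycle genes 7 rose and 4 fell, with TOP2A higher by 1.00 ± 0.19 (adjusted p 0.0029) and AURKB at -0.90 ± 0.21 (adjusted p 0.00695). Of 19 partners 2 rose and 4 fell, with SYNE2 higher by 1.74 ± 0.15 (adjusted p 3.1e-05) and LBR lower at -1.18 ± 0.15 (adjusted p 0.00028). Of 12 other HMG genes 4 rose and 4 fell, of 15 heterochromatin genes 2 rose and 5 fell, of 26 pore genes 6 rose and 2 fell, of 5 processing genes 1 rose and 1 fell, and of 6 HMGB1 receptor and export genes 3 rose and 2 fell. LBR was thus called lower than in primary cells in both later stages on the TMM scale, as LMNA was, though not in senescent cells by total counts or housekeeping genes.

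The genes whose pattern was most like that of LMNB1 over the 9 Simmental-like libraries were GUSB, CNN2 and RAB12, with Pearson correlations of log2 CPM of 0.983, 0.982 and 0.982 among 8462 candidates with a mean of at least 10 CPM. CNN2 averaged 219 CPM in immortalized, 161 CPM in senescent and 193 CPM in primary cells. For HMGB2 they were ACOT2, OS9 and PDGFRL (0.993, 0.992 and 0.991), and for HMGA2 they were KIF18A, ITGA3 and ENC1 (0.990, 0.990 and 0.989 among 8463 candidates). ITGA3, an integrin subunit, averaged 440 CPM in immortalized, 278 CPM in senescent and 102 CPM in primary cells, in the order that HMGA2 showed. The 9 libraries share stage and scaling, so these correlations describe the libraries only.

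In the Holstein-like libraries the same genes followed libraries as much as stages. HMGA2 had 0 counts in all 9, where 3 counts, the limit that a count of 0 allows, are 0.213 to 2.11 CPM. In Simmental-like primary libraries HMGA2 had 1.20 to 2.16 CPM by total counts. The limit in single Holstein-like primary libraries was 2.05 to 2.11 CPM. A difference between lines at the primary stage was thus not resolved library by library, and it was not tested over the summed libraries. LMNB1 had 44, 63 and 135 counts in immortalized libraries, 17, 53 and 64 in senescent ones and 0, 0 and 1 in primary ones. By total counts that was 3.69, 5.74 and 9.66 CPM in immortalized and 1.21, 4.11 and 4.80 CPM in senescent libraries, all under the lowest Simmental-like library at 36.7 CPM. Summed over libraries, the ratio of LMNB1 CPM was 28.5 for immortalized over primary (95% exact counting interval 5.08 to 1130) and 14.5 for senescent over primary (2.55 to 575). Over the summed libraries, LMNB1 was thus lowest in those labelled primary, in which skeletal muscle markers took 24.0 to 24.1% of counts. Library by library this is not resolved, since 0, 0 and 1 counts allow levels above the 1.21 CPM of senescent library 1.

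LMNA in Holstein-like libraries had 34.1, 133 and 546 CPM by total counts in immortalized, 90.9, 64.3 and 67.5 CPM in senescent and 109, 94.1 and 104 CPM in primary ones. The highest of the 9, immortalized library 3, was the library with fibroblast markers at 6.74%, and the part of cell type in it was not tested. The same library had the highest level of EMD, at 89.8 CPM against 18.6 and 34.1 CPM in the other two immortalized libraries, of TMPO, at 66.6 CPM against 29.9 and 45.8 CPM, and of HMGB2, at 95.5 CPM against 24.3 and 41.1 CPM. By total counts, LMNA, EMD, TMPO, HMGB2 and LMNB1, the last at 9.66 CPM, were thus highest in immortalized library 3. On the TMM scale HMGB2 was not highest there, at 56.9 CPM against 59.6 CPM in senescent library 1. The other detected genes were highest elsewhere by total counts. LMNB2, LEMD3 and HMGB1 were highest in immortalized library 2, at 20.7, 26.9 and 285 CPM. BANF1 was highest in primary library 2, at 273 CPM. BANF1 had 79.2, 99.7 and 100 CPM in immortalized libraries, 200, 129 and 99.5 CPM in senescent libraries and 264, 273 and 254 CPM in primary libraries, with no overlap between immortalized and primary.

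HMGB1 in Holstein-like libraries had 126, 285 and 255 CPM by total counts in immortalized, 270, 180 and 153 CPM in senescent and 177, 155 and 159 CPM in primary libraries, which overlapped. LMNB2 stayed at 4.47 to 20.7 CPM and LEMD3 at 5.45 to 26.9 CPM over the 9 libraries, with stages overlapping for both. In edgeR none of the 9 tested genes was called in senescent against primary libraries (15.2% of 13312 tested genes were). At an unadjusted p under 0.05, 2 were higher and 1 lower, beside 4922 of the 13312 tested genes in either direction. In DESeq2 1 was higher and 1 lower, and in limma-voom 0 were called. In immortalized against senescent libraries 0 genes of the whole table were called (0%), with 971 at an unadjusted p under 0.05, 34 in DESeq2 and 0 in limma-voom. In immortalized against primary libraries, LMNB1 was called higher, beside 15.3% of all genes, and BANF1 lower, beside 8.73%, with 24% called in either direction. The call of LMNB1 was lost without any 1 of the 6 libraries, in limma-voom, with a replicate block, with either other filter and with the near-identical primary libraries summed. That of BANF1 was lost without any 1 primary library and with those libraries summed. BANF1 changed by -2.34 ± 0.48 on the log2 scale (edgeR adjusted p 0.0172), whereas the fitted value of LMNB1 rests on 1 count in the primary libraries.

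The change between stages was also compared between the lines, in 1 fit over all 18 libraries. The Holstein-like primary libraries entered it as separate samples, although they differed by a chi-square per gene of only 1.2 to 1.22. The fit was not run with them summed, so its p-values and shares of called genes may rest on technical variation there. For senescent over primary cells, where 28.4% of 14850 tested genes differed between lines (edgeR interaction, adjusted p under 0.05), LMNB1, HMGB1 and HMGB2 did so. By total counts LMNB1 alone of them was called (adjusted p 0.0272), with HMGB1 at 0.156 and HMGB2 at 0.0765, and HMGB1 was not called with RLE scaling or no filter either. HMGB2 was at -0.38 in the Simmental-like line and 1.42 in the Holstein-like line, a difference of -1.83 ± 0.57 (adjusted p 0.0259). In the fits of single lines, the median over all tested genes was 0.01 in the Simmental-like and 0.62 in the Holstein-like line. For immortalized over primary cells these medians were 0 and 0.74. The differences between lines were not taken relative to these medians, so they include any shift shared by many genes. For immortalized over primary cells, where 32.4% of genes differed, LMNB1 and BANF1 did so. For immortalized over senescent cells, where 2.07% of genes differed, none of the 9 tested genes was called, the nearest being BANF1 at 1.56 ± 0.49 (adjusted p 0.111). HMGA2, at 0 counts in every Holstein-like library, was left out of this comparison. Since the Holstein-like libraries went against their label, a difference between lines cannot be told apart from a difference in cell type. Nor can it be told apart from what the ending Rerun of the Holstein-like column names marks.

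**Figure D4:**
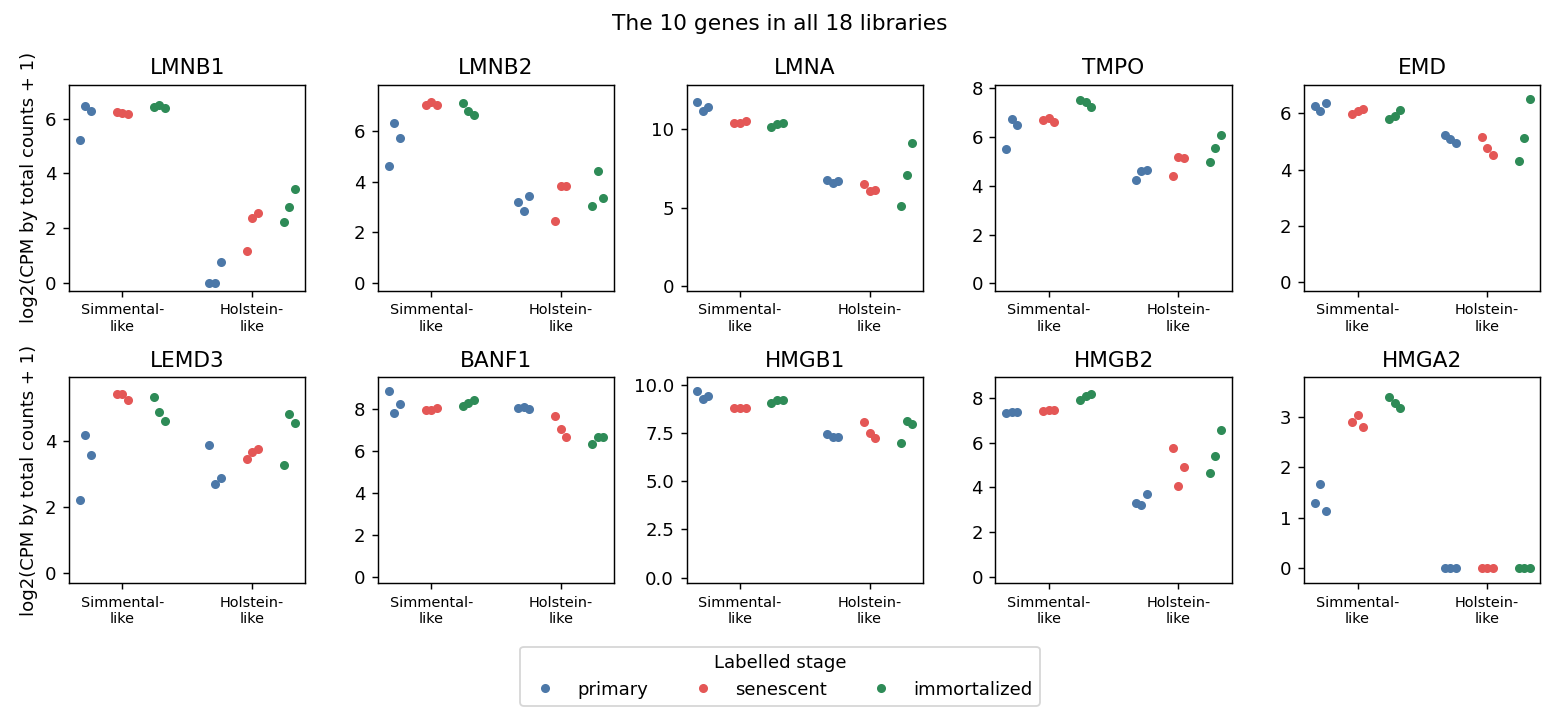
Log2 of (CPM by total counts + 1) for each of the 10 genes in all 18 libraries, with Simmental-like libraries left and Holstein-like libraries right in each panel, coloured by labelled stage and ordered primary, senescent, immortalized. Every Holstein-like library lies below every Simmental-like one for LMNB1, HMGA2 is at 0 in all 9 Holstein-like libraries, and the values of BANF1 overlap between the lines.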

How the data were processed

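Expected counts per gene were estimated by the authors with salmon, per the file name, and deposited as 1 merged table of 24596 genes and 18 libraries. The genome build was UMD3.1, per the submitters' processing notes. For salmon, neither version nor annotation nor strand setting is stated in those sources. Per the labels' protocols, RNA was extracted with RNeasy kits and libraries were made with NEBNext Ultra II kits for NextSeq.

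The deposited expected counts were rounded and tested with edgeR 4.0.16 in R 4.3.3, on the 9 libraries of each line: TMM scaling, filterByExpr, a robust quasi-likelihood fit and Benjamini-Hochberg adjustment over all tested genes (threshold 0.05). Changes were compared between lines through an interaction term over all 18 libraries. Each standard error was taken as the log2 change divided by the root of its F statistic. All 10 genes passed the filter in the Simmental-like line and 9 in the Holstein-like line. Ratios used a pseudocount of 0.1 CPM. Alternatives were other scalings, filters, DESeq2 1.42.0, limma-voom 3.58.1, other sets of libraries, a replicate block and leaving out each library. Intervals and floors cover counting error only. Simulated data were used to test the steps. Total counts give the depth per library. The genes and lists were chosen with earlier results of these data known. Named were all 10 genes, up to 2 of each list per direction with at least 5 CPM, MKI67 and TOP2A, and the 3 genes most like LMNB1, HMGB2 and HMGA2. No result given here uses gene positions, since the annotation at hand is of another build.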

Additional observations from a re-analysis of the deposited data

Results flagged for a closer look

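The genes LMNB1, HMGB2 and HMGB1 differed between lines in the change of senescent over primary cells when the difference itself was tested over all 18 libraries (edgeR interaction, adjusted over 14850 genes, of which 28.4% were called). The Simmental-like minus Holstein-like log2 change was -3.81 for LMNB1 (adjusted p 0.0113), -1.83 for HMGB2 (adjusted p 0.0259) and -1.14 for HMGB1 (adjusted p 0.0405). For HMGB2 the changes behind it were -0.38 in the Simmental-like line and 1.42 in the Holstein-like line, and for HMGB1 they were -1.16 in the Simmental-like and -0.05 in the Holstein-like line. The median over all tested genes was 0.01 in the Simmental-like and 0.62 in the Holstein-like line, and the differences were not taken relative to it. Under total-count scaling LMNB1 was called (adjusted p 0.0272), and HMGB2 (0.0765) and HMGB1 (0.156) were not; HMGB1 was not called with RLE scaling (0.0663) or no filter (0.0741) either. For the change of immortalized over primary cells, where 32.4% of genes were called, the difference was -3.78 for LMNB1 (adjusted p 0.0101) and 1.87 for BANF1 (adjusted p 0.01). The LMNB1 values rest on 1 count in the 3 Holstein-like primary libraries, so their size depends on the prior count of the fit. Those 3 libraries differed by little more than counting noise, and the test between lines was not run with them summed. Skeletal muscle markers took 24.0 to 24.1% of the counts of those libraries, and the part of cell type in these differences was not tested.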

How the results depend on the processing

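In the Simmental-like line, with TMM, RLE or upper quartile scaling, with DESeq2 or limma-voom and with other filters, the count of the 10 genes called higher or lower stayed within 1.5 times of the reported one in each comparison. In senescent against primary cells, where 5 of the 10 genes were called lower, 2 were under total-count scaling, without genes at 1% or more, and under housekeeping scaling, 3 with near-identical libraries summed, and 3 to 7 when single libraries were left out. Genes called higher and lower over the whole table were 5952 and 1843 by total count and 6642 and 1256 by housekeeping genes, and 2122 were lower without genes at 1% or more. With primary library 1 left out as well, a step chosen after seeing the data, these were 6954 and 2338, 7508 and 1701, and 6482 higher, with 2, 2 and 3 of the 10 genes lower. In immortalized against primary cells, 3 of the 10 genes were higher with a replicate block, 2 with only the 6 libraries compared and 2 to 5 with single libraries left out (5 reported); 1 was lower by total count and by housekeeping genes (3 reported), with 2098 genes lower over the table by total count and 5502 higher and 1416 lower by housekeeping genes. In immortalized against senescent cells, 6 of the 10 were higher with only the 6 libraries compared, with 4212 genes higher and 4388 lower, and 1 to 2 with single libraries left out, with 1406 to 1675 genes higher.

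Reversed changes of senescent over primary cells were, under total-count scaling, without genes at 1% or more and under housekeeping scaling in turn, 0.14, 0.06 and 0.32 for LMNB1, 0.36, 0.28 and 0.54 for TMPO and 0.10, 0.02 and 0.32 for HMGB2, with 0.06 for EMD, 0.11 for CABIN1, 0.23 for FNTA, 0.02 for H2AFY and 0.01 for SEC13 under the last. With primary library 1 left out as well they were 0.07, 0.00 and 0.21 for TMPO and 0.08, 0.01 and 0.23 for HMGB2, with 0.13 for AAAS, 0.11 for BANF1, 0.09 for CABIN1, 0.15 for FNTA, 0.11 for RCE1 and 0.12 for SEC13 under housekeeping scaling. TMPO ranged from -0.31 to 0.10 with single libraries left out. For immortalized over primary cells, housekeeping scaling gave 0.20 for AHCTF1, 0.22 for BANF1, 0.15 for FNTA and 0.13 for TPR, and single libraries left out gave -0.68 to 0.02 for BANF1 and -0.14 to 0.28 for LMNB1. For immortalized over senescent cells, changes near 0 reversed: LMNA was -0.15, -0.11 and -0.13 and EMD -0.13, -0.09 and -0.11 under the same 3 scalings, LMNA was -0.01 with upper quartile scaling, a stricter filter, near-identical libraries summed or only the 6 libraries compared, and single libraries left out gave -0.04 to 0.06 for LMNA, -0.08 to 0.10 for EMD and -0.17 to 0.05 for LMNB2. The cause was not tested. Each of the 3 ratios kept its sign in each of the 3 comparisons with a pseudocount of 1 CPM and with each library left out, and of the single-gene values 2467 kept direction and side of the threshold, 271 lost the call and 19 gained it.

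In the Holstein-like line, immortalized against primary libraries gave 3198 genes called, with 4938 in DESeq2, 1148 in limma-voom, 1109 with a replicate block, 5272 by total count, 0 with near-identical libraries summed and 417 to 2547 with single libraries left out. Of the 10 genes, 1 was called higher (LMNB1), which became 2 by total count, by housekeeping genes, without genes at 1% or more and with only the 6 libraries compared, and 0 were called in limma-voom, with no filter, a stricter filter, a block, summed libraries or any library left out; BANF1, the 1 called lower, was lost with summed libraries, and 0 to 1 were lower with single libraries left out. In senescent against primary libraries 2024 genes were called, 3942 in DESeq2, 787 in limma-voom, 303 with a block, 0 with summed libraries and 143 to 3545 with single libraries left out; of the 10 genes 1 was higher and 1 lower in DESeq2, and 0 to 1 with libraries left out. In immortalized against senescent libraries 34 genes were called in DESeq2 and 0 to 5 with libraries left out. In the test between lines, total-count scaling gave 1 gene of the 10 with a lower change in the Simmental-like line in place of 3 for senescent over primary (LMNB1, with HMGB1 and HMGB2 lost) and 2 in place of 1 for immortalized over primary (HMGB2 added), and 572 of all genes in place of 308 for immortalized over senescent. Summing left 1 Holstein-like primary library, assumed to vary like the other groups. Whether the replicate numbers pair the libraries was not settled. Same-numbered Simmental-like libraries had correlations of -0.60 to 0.33 in their deviations from group means, and not every library correlated best with its own number. Such correlations cannot exclude pairing, since deviations from a mean of 3 libraries sum to 0 and primary library 1 stood apart. The block result is therefore given for its counts only. Depth limits HMGA2, at 22 to 50 counts in primary libraries, and all genes in Holstein-like primary libraries of 1.42 to 1.47 M counts.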
